A study of Mus musculus with 6 samples.

Results

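The Cyp4 fatty acid omega-hydroxylases were followed here as 10 genes of mouse liver, Cyp4a10, Cyp4a12a, Cyp4a12b, Cyp4a14, Cyp4a31, Cyp4a32, Cyp4f13, Cyp4f14, Cyp4f15 and Cyp4v3, taken by symbol from 56350 gene IDs of a read count table. All 10 passed the low-count filter that left 16051 genes for testing. RNA of liver tissue was sequenced in 3 libraries from mice labelled Atg14 hepatocyte-specific knockout (HepKO) and 3 libraries from wild-type mice (WT). The product of Atg14 recruits the class III phosphatidylinositol 3-kinase to sites where autophagosomes form. The sources used here do not give age, sex, diet, strain, time of collection or the driver of the deletion. Whether the 3 libraries per group stem from different animals is likewise unstated, and the p-values measure only the spread between these libraries, of which the technical part is not known.

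Cyp4 enzymes are haem-containing monooxygenases of the endoplasmic reticulum that place a hydroxyl group on the last (omega) carbon of a fatty acid. Alcohol and aldehyde dehydrogenases then turn the product into a dicarboxylic acid, which is shortened in peroxisomes. In mouse liver the Cyp4a10 and Cyp4a14 genes are textbook targets of PPARα, the nuclear receptor that senses fatty acids, while Cyp4a12a is known as a male-predominant enzyme that makes 20-HETE from arachidonic acid. Cyp4f enzymes are known for inactivating leukotriene B4 and related lipid mediators, and Cyp4v3 is the mouse counterpart of human CYP4V2, the gene mutated in Bietti crystalline dystrophy of the retina.

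Some Cyp4a genes are near-identical copies, which bears on every count given here. The 6 Cyp4a members lie in a cluster on chromosome 4 of GRCm38 (mm10), where Cyp4a12a spans 115299046 to 115332815, Cyp4a12b 115411624 to 115439034, Cyp4a14 115486200 to 115496142, Cyp4a10 115518264 to 115533649, Cyp4a31 115563649 to 115579015 and Cyp4a32 115600969 to 115621602. Cyp4a14 is on the minus strand and the others on the plus strand. Coding sequences of Cyp4a12a and Cyp4a12b were 98.5% identical, with a longest identical run of 342 bases. Cyp4a10 was 97.2% identical to Cyp4a32 and 96.6% to Cyp4a31, with runs of up to 179 and 186 bases, whereas Cyp4a10 and Cyp4a14 were 76.1% identical with no run over 23 bases. The 60 coding bases around the codon of the haem-binding cysteine show this. They are given from GENCODE M21 transcripts (GRCm38, chromosome 4), 5′ to 3′ on the coding strand, with capitals where a base differs from Cyp4a10:
Cyp4a10: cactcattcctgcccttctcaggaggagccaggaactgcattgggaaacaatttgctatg
Cyp4a31: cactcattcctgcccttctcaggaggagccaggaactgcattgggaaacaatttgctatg
Cyp4a32: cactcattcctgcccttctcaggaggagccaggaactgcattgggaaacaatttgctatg
Cyp4a14: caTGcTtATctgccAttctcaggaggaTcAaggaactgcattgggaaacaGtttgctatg
Cyp4a12a: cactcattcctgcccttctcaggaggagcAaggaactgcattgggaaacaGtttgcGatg
Cyp4a12b: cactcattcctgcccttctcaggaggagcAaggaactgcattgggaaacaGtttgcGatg
In this window Cyp4a10, Cyp4a31 and Cyp4a32 could not be told apart, nor could Cyp4a12a and Cyp4a12b, while Cyp4a14 differed from Cyp4a10 at 9 bases. How the authors' counting treated reads that match several copies is not stated in those sources, so counts of Cyp4a10, Cyp4a31, Cyp4a32, Cyp4a12a and Cyp4a12b are uncertain one by one and are given also as sums. The remaining members are less alike. Cyp4f14 and Cyp4f15, on chromosome 17, were the closest of them with 82.2% identity.

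The libraries held 33145684 to 48951937 counts. Levels are given as CPM, counts scaled to library totals multiplied by a factor from the trimmed mean of M-values. These factors were 0.8243 to 0.8601 in WT and 1.188 to 1.205 in HepKO. Beside plain library totals, they raise the WT values and lower the HepKO values. Atg14 averaged 7.36 ± 1.48 CPM in HepKO and 21.4 ± 0.682 CPM in WT (SD, n = 3 each), with no overlap. Hepatocyte markers were lower in HepKO, 11 of 12 by the test, with a summed level of 47600 to 61000 CPM in HepKO and 122000 to 143000 CPM in WT, and all 12 were detected. Markers of other cells were higher, 6 of 7 for Kupffer cells (summed 376 to 691 CPM in HepKO, 151 to 299 CPM in WT), 7 of 11 for recruited leukocytes (157 to 251 CPM in HepKO, 44.5 to 90 CPM in WT) and 4 of 6 for cholangiocytes (148 to 561 CPM in HepKO, 44 to 61.9 CPM in WT), as were 3 of 7 of stellate cells and 1 of 6 of endothelium, with no list gene at 0 throughout. With 1 library left out in turn, the counts were 3 to 7 for Kupffer cells (3 without WT replicate 3, 4 without HepKO replicate 1, HepKO replicate 3 or WT replicate 1), 4 to 7 for leukocytes (4 without HepKO replicate 3), 2 to 4 for cholangiocytes (2 without HepKO replicate 2, WT replicate 1 or WT replicate 3) and 0 to 2 for endothelium (0 without WT replicate 1 or 3, 2 without WT replicate 2). Hepatocyte markers called lower numbered 9 of 12 with a library left out, or 8 without WT replicate 1. With library totals 7 of 12 hepatocyte markers were lower, 6 of 7 stellate cell and 4 of 6 endothelial markers higher. Their part in the Cyp4 values was not tested, and in bulk tissue fewer hepatocytes and less RNA per hepatocyte cannot be told apart. HepKO replicate 1 stood apart in its sex-linked genes. It had 523 CPM of Xist, the RNA of the inactive X chromosome, against 0.0676 to 0.49 CPM in the other 5 libraries, and no more than 0.103 CPM of the Y-linked genes Ddx3y, Eif2s3y, Kdm5d and Uty, which had 14.5 to 102 CPM elsewhere. This is the pattern of a female liver in HepKO replicate 1 and of male livers in the other 5 libraries. Sex was thus not balanced between the groups. Results are therefore also given without HepKO replicate 1.

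Of the 10 Cyp4 genes, 5 fell in HepKO livers and 0 rose. Those that fell were Cyp4a14, Cyp4a10, Cyp4a32, Cyp4f15 and Cyp4v3. The test was edgeR's quasi-likelihood test of log2 fold change (log2FC, HepKO over WT) after scaling by the trimmed mean of M-values (TMM). A gene was called where its p, adjusted by Benjamini and Hochberg's method over all genes tested (FDR), was under 0.05. Over all genes, 38.2% were called, 18.7% lower and 19.5% higher. The median log2FC of the 10 members was -1.01, and that of all tested genes 0.01. The 12 hepatocyte markers had a median of -1.11, so a shift of this size was not particular to the Cyp4 members. For 6 of the 10, every HepKO library was below every WT library, a pattern that 26.4% of all tested genes had. By tool, DESeq2 and limma-voom also called 5 lower and 0 higher, and 1 member was higher at an unadjusted p under 0.05. Over all genes, DESeq2 called 2914 lower and 3362 higher of 29794, and limma-voom 3075 lower and 3050 higher of 16051. Without HepKO replicate 1, 5 members were lower and 0 higher, where 17.5% of all genes were called lower and 16.3% higher. With library totals in place of TMM, 4 were lower and 1 higher, against 5.84% and 46.4% of all genes. Over either direction and for groups that do not overlap, the shares of all genes were 33.9% without that library, 52.2% with library totals and, for no overlap under TMM, 53.5%.

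**Figure D1:**
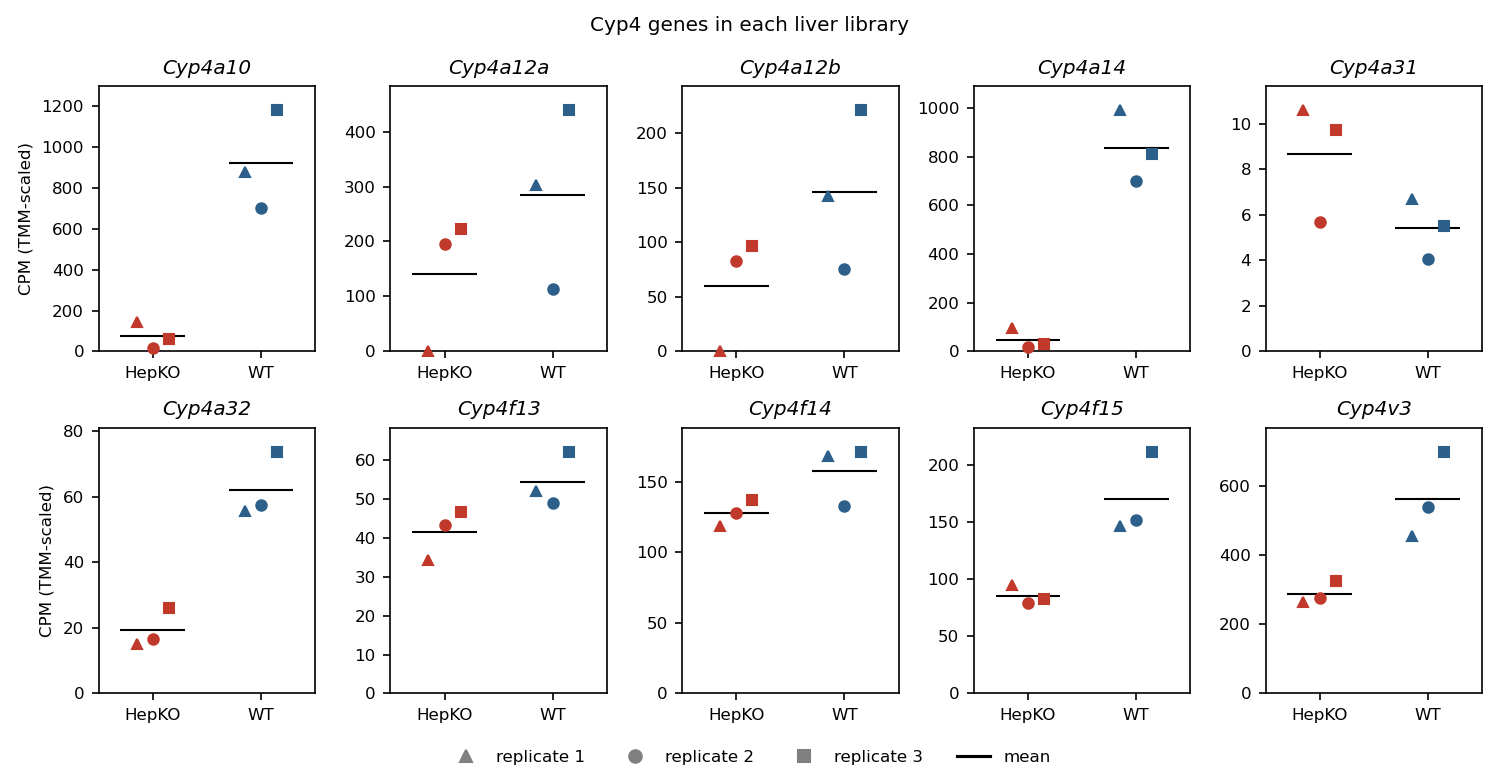
Level of each Cyp4 gene in CPM (linear axes from 0) in the 3 HepKO and 3 WT libraries, with a symbol per replicate number and a line at the group mean. Cyp4a10 and Cyp4a14 are far lower in all HepKO libraries, and Cyp4a12a and Cyp4a12b are near 0 in HepKO replicate 1 only.

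The 2 most abundant members in WT had the lowest folds. Cyp4a14 stood at 95.6, 16.8 and 29.8 CPM across HepKO replicates 1 to 3, against 992, 701 and 813 CPM across WT replicates 1 to 3. No HepKO library came near the WT range, and HepKO replicate 1 was the highest of the 3. The log2FC was -4.14 ± 0.62 (SE, FDR 0.00173), a 17.6-fold lower level. Cyp4a10 had 142, 17.9 and 60.2 CPM in HepKO and 876, 703 and 1180 CPM in WT, in the same replicate order. Its log2FC was -3.65 ± 0.66 (FDR 0.00406), with HepKO replicate 1 again the highest of its group. That library had 4.11 times the mean of the other 2 HepKO libraries for Cyp4a14 and 3.62 times for Cyp4a10. Without it the log2FC was -5.17 ± 0.31 for Cyp4a14 (FDR 1.77e-04) and -4.56 ± 0.56 for Cyp4a10 (FDR 0.00127). The spread followed the same split, with a coefficient of variation of 89.2% in HepKO and 17.6% in WT for Cyp4a14.

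Cyp4a32 and Cyp4a31, the copies most like Cyp4a10, did not share its size of change. Cyp4a32 had 15.2, 16.6 and 26.1 CPM in the HepKO libraries, against 55.5, 57.4 and 73.6 CPM in the WT libraries, a log2FC of -1.69 ± 0.22 (FDR 9.78e-04) with no overlap. HepKO replicate 1 was its lowest library. Cyp4a31, the lowest member in counts, had 10.6, 5.68 and 9.73 CPM in HepKO and 6.69, 4.04 and 5.53 CPM in WT. The groups overlapped and the test did not call it (log2FC 0.68 ± 0.28, FDR 0.0939), although it was called higher with the replicate number as a block (adjusted p = 0.0381) and without HepKO replicate 2 (log2FC 0.90, FDR 0.0306). Per base of exon, Cyp4a32 stood at 0.147, 1.28 and 0.595 times the Cyp4a10 level in HepKO and 0.087, 0.112 and 0.0859 times in WT. It exceeded Cyp4a10 in HepKO replicate 2 by this measure only, with 745 counts against 802. The exon lengths used were 1536 bases for Cyp4a32 and 2109 for Cyp4a10. The summed counts of Cyp4a10, Cyp4a31 and Cyp4a32, which do not depend on how reads were split among them, were lower in HepKO by a log2FC of -3.28 ± 0.48 (FDR 0.00161). Any reads left out for matching several copies would be missing from this sum too.

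The Cyp4a12 pair was marked by 1 library. Cyp4a12a stood at 1.29, 196 and 223 CPM across HepKO replicates 1 to 3, and at 303, 113 and 439 CPM across the WT libraries. Cyp4a12b had 0.172, 82.5 and 96.6 CPM in HepKO and 142, 75.8 and 221 CPM in WT. Both genes were almost absent from HepKO replicate 1, at 75 and 10 counts, while HepKO replicates 2 and 3 lay inside the WT range. The other 2 HepKO libraries averaged 162 times its level for Cyp4a12a and 520 times for Cyp4a12b. Neither was called, with a log2FC of -1.03 ± 1.22 for Cyp4a12a (FDR 0.547) and -1.29 ± 1.26 for Cyp4a12b (FDR 0.459). Limma-voom, which also called neither, put Cyp4a12a at -2.78 ± 1.78 (FDR 0.252) and Cyp4a12b at -4.07 ± 1.92 (FDR 0.129), and the replicate block gave -1.74 (FDR 0.493) and -2.12 (FDR 0.401), so the size of these folds is not settled. Without HepKO replicate 1 the values were -0.45 ± 0.47 (FDR 0.501) and -0.71 ± 0.38 (FDR 0.196). Their sum was not called either (log2FC -1.11 ± 1.25, FDR 0.522). The ratio of Cyp4a12a to Cyp4a12b per base of exon was 7.42, 2.34 and 2.28 in HepKO and 2.12, 1.48 and 1.96 in WT, the first value resting on the 10 counts of Cyp4a12b.

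**Figure D2:**
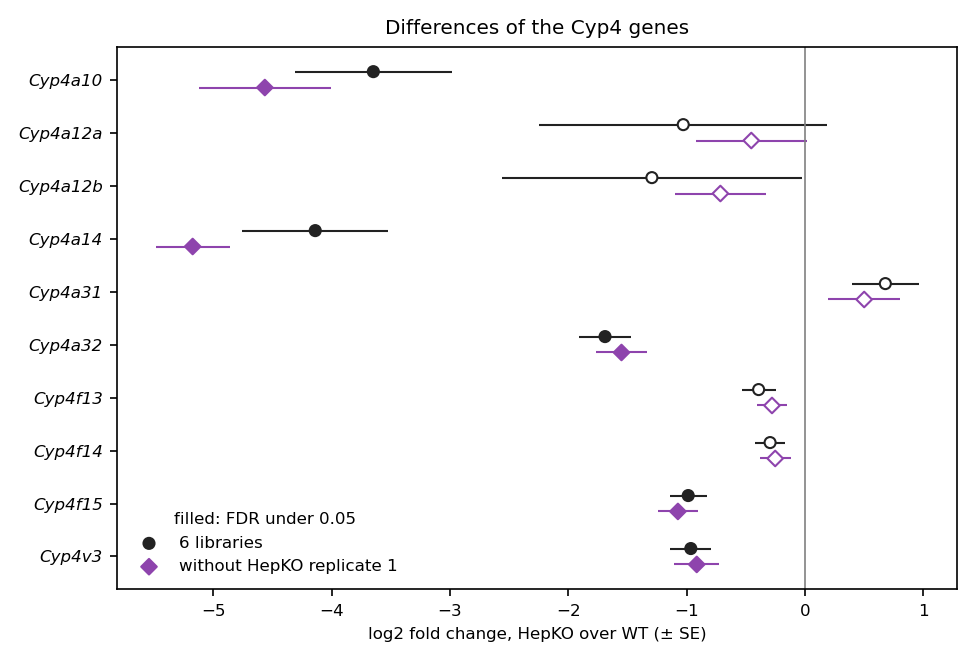
Log2 fold change of each Cyp4 gene, HepKO over WT, with its standard error, from all 6 libraries (circles) and without HepKO replicate 1 (diamonds), filled where the FDR is under 0.05. Cyp4a14 and Cyp4a10 lie lowest under both, and the Cyp4a12 pair has the widest errors with all 6 libraries.

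In HepKO replicate 1, Cyp4a12a was low together with the Y-linked genes. The 5 genes with a profile over the 6 libraries closest to Cyp4a12a, by root mean square difference in log2 CPM from the WT mean among 9393 candidates of at least 5 CPM, were Slco1a1 (0.533), Kdm5d (0.63), Uty (0.78), Cyp4a12b (0.837) and Eif2s3y (0.869). The likeness to the Y-linked genes lay in that library, since across WT replicates 1 to 3 Cyp4a12a had 303, 113 and 439 CPM while Kdm5d had 24.2, 27.6 and 30.4 CPM. Slco1a1, a male-biased organic anion transporter, had 1.38, 104 and 156 CPM in HepKO and between 117 and 427 CPM in WT. Of 15 male-biased liver genes other than Cyp4, 2 fell (Mup12 and Mup1, urinary protein genes) and 1 rose (Selenbp2), and their summed level was 277 CPM in HepKO replicate 1, 5980 and 6130 CPM in the other HepKO libraries, and 3780 to 10000 CPM in WT. Without HepKO replicate 1, 6 fell and 1 rose, and Selenbp2 was not called without HepKO replicate 2 or 3 or WT replicate 1 or 2 (FDR 0.0802 to 0.105). The sources do not give sex, but by Xist and the Y-linked genes HepKO replicate 1 differed in sex from all other libraries. The part of sex in the Cyp4 values was not tested. Female-biased genes summed to 4110 CPM in HepKO replicate 1, 666 and 1110 CPM in the other HepKO libraries and 267 to 396 CPM in WT. Cyp2a4 carried most of the HepKO sums, at 3610, 572 and 998 CPM in HepKO and 3.51, 11.8 and 2.9 CPM in WT. Without Cyp2a4, a split made after seeing the values, the sum was 502 CPM in HepKO replicate 1, 93.8 and 115 CPM in HepKO replicates 2 and 3, and 264 to 385 CPM in WT. By the test 1 of 17 rose (Cyp2a4) and 1 fell (Fmo2, log2FC -1.65 ± 0.39, FDR 0.0128) with all libraries, against 1 and 7 without HepKO replicate 1 and 4 and 0 without HepKO replicate 2. Growth hormone signals maintain male-type Cyp4a12 expression in mouse liver. The growth hormone receptor gene Ghr fell (log2FC -1.66 ± 0.17, FDR 3.78e-04), as did Igf1 and Igfals, while Jak2 and Socs2 rose and 6 of the 11 genes of that list were not called. With library totals 4 were higher and 2 lower, Igfals being no longer called (FDR 0.0852), and without HepKO replicate 3 Socs2 was not called (FDR 0.083).

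**Figure D3:**
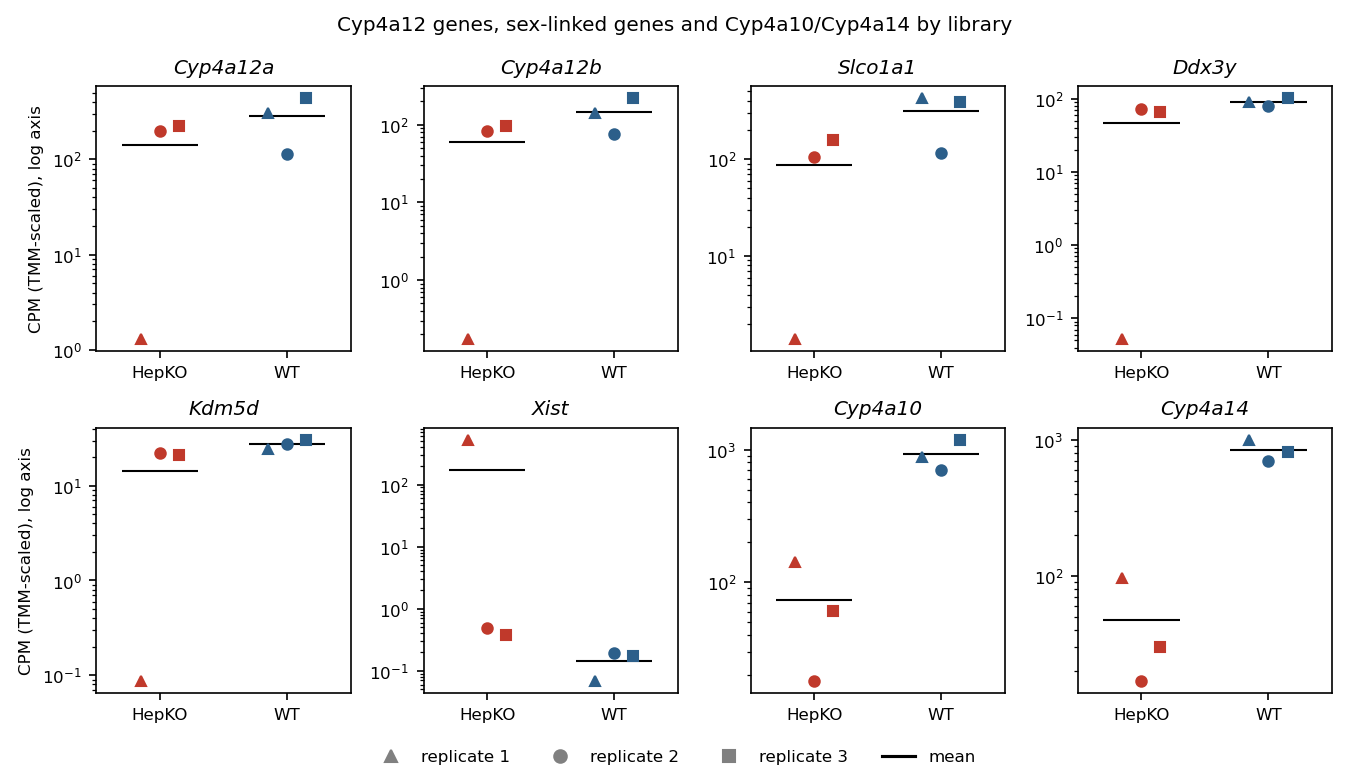
CPM on log axes of Cyp4a12a, Cyp4a12b, Slco1a1, the Y-linked Ddx3y and Kdm5d, Xist, Cyp4a10 and Cyp4a14 in each library, with a line at the group mean. HepKO replicate 1 is low for the first 5 genes, at 523 CPM for Xist, and above the other HepKO libraries for Cyp4a10 and Cyp4a14.

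Cyp4f15 and Cyp4v3 fell by less than Cyp4a14, Cyp4a10 and Cyp4a32 in their fitted folds, and varied little inside HepKO. Cyp4f15, on chromosome 17 from 32685627 to 32703352 (plus strand), had 94.9, 79.4 and 82.5 CPM in HepKO and 146, 152 and 211 CPM in WT. Every HepKO library was below every WT library (log2FC -0.99 ± 0.16, FDR 0.00231). Cyp4v3, on chromosome 8 from 45304944 to 45333216 (minus strand), had 265, 276 and 325 CPM in HepKO and 454, 538 and 698 CPM in WT, a log2FC of -0.96 ± 0.17 (FDR 0.00365). Its exons overlap those of the same-strand gene Gm45753, whose reads could have been left out or shared.

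Cyp4f14 and Cyp4f13 were not called. Cyp4f14, on chromosome 17 from 32905070 to 32917342 (minus strand), which encodes a leukotriene B4 hydroxylase, had 119, 128 and 137 CPM in HepKO and 168, 133 and 171 CPM in WT. The ranges overlapped (log2FC -0.29 ± 0.12, FDR 0.0972). Cyp4f13, from 32924688 to 32947402 on the same strand, had 34.4, 43.4 and 46.7 CPM in HepKO and 52, 49 and 62.1 CPM in WT, which did not overlap (log2FC -0.39 ± 0.14, FDR 0.0634). Cyp4f14 varied least among HepKO libraries, with a coefficient of variation of 7.08%. Folds of this size depend on the scaling: with library totals in place of TMM the median log2FC of all genes was 0.52, that of Cyp4f15 was -0.47 (FDR 0.0296) and that of Cyp4v3 -0.45 (FDR 0.0516), while Cyp4f13 was at 0.12 and Cyp4f14 at 0.22, neither called.

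Summed by subfamily, the Cyp4a genes fell further than the Cyp4f genes. The 6 Cyp4a members together reached 264, 335 and 445 CPM across HepKO replicates 1 to 3, and 2380, 1650 and 2730 CPM across the WT libraries. The summed Cyp4a counts were 6.47-fold lower (log2FC -2.69 ± 0.25, FDR 2.95e-04), and the 3 HepKO libraries differed less in this sum than in Cyp4a14 or Cyp4a12a alone. The 3 Cyp4f members together had 249, 251 and 267 CPM in HepKO and 366, 333 and 443 CPM in WT, 1.49-fold lower (log2FC -0.58 ± 0.13, FDR 0.00863). With library totals the summed Cyp4f counts were not called (log2FC -0.06, FDR 0.664), and the summed Cyp4a counts were (log2FC -2.18, FDR 3.51e-04). The difference between the subfamilies was not tested beyond these separate fits.

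The order of the members by level also differed. Per kilobase of exon (FPKM, on TMM-scaled totals), the WT order was Cyp4a10 (435), Cyp4a14 (321), Cyp4v3 (148), Cyp4a12a (118), Cyp4f15 (74.3), Cyp4f14 (65), Cyp4a12b (61.1), Cyp4a32 (40.5), Cyp4f13 (12.2) and Cyp4a31 (2.16), as means of 3 libraries. In HepKO it was Cyp4v3 (75.8), Cyp4a12a (57.8), Cyp4f14 (53), Cyp4f15 (37.5), Cyp4a10 (34.7), Cyp4a12b (25), Cyp4a14 (18.2), Cyp4a32 (12.6), Cyp4f13 (9.34) and Cyp4a31 (3.45). Ranges of the neighbours Cyp4a10 and Cyp4a14 in WT overlapped, as did those of all neighbours from Cyp4v3 down to Cyp4a32. In HepKO all neighbours overlapped except Cyp4f14 with Cyp4f15 and Cyp4f13 with Cyp4a31. Cyp4a members made up 41.3% to 50.6% of the summed Cyp4 FPKM in HepKO and 72.5% to 79.4% in WT, and Cyp4f members 27.1% to 34.4% in HepKO and 11.3% to 13.3% in WT. The total was 287, 313 and 382 FPKM in HepKO and 1280, 994 and 1550 FPKM in WT. Its make-up differed inside HepKO. Cyp4a12a took 0.186% in replicate 1 but 25.8% and 24.1% in replicates 2 and 3, while Cyp4a10 took 23.4%, 2.71% and 7.48%.

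**Figure D4:**
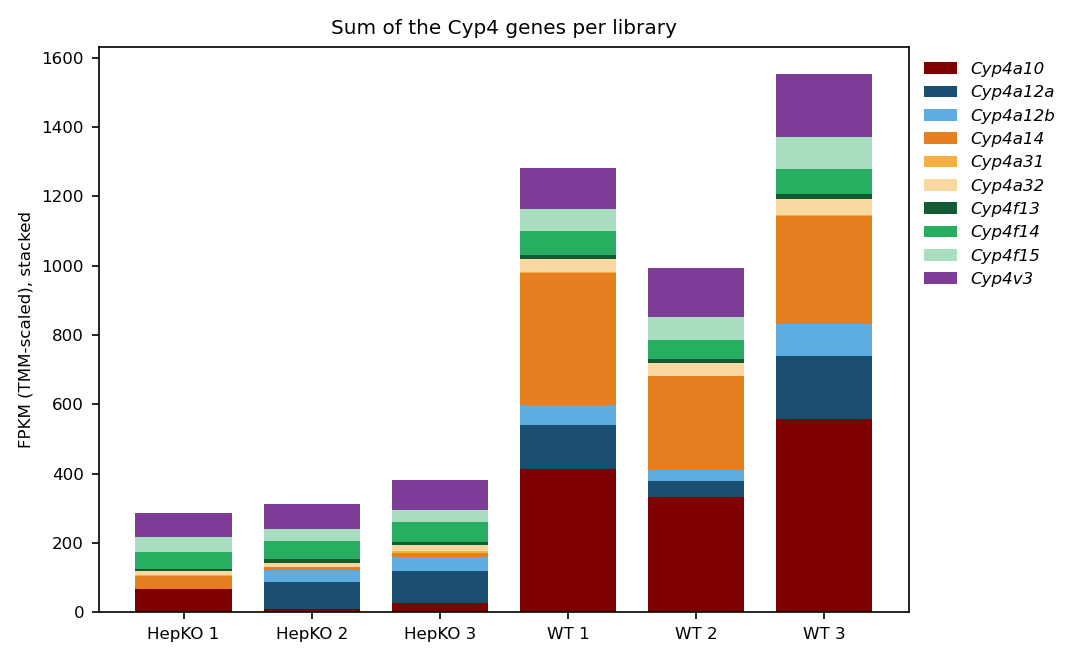
FPKM of the 10 Cyp4 genes stacked for each library. The HepKO columns reach 287 to 382 and the WT columns 994 to 1550, and the Cyp4a10 and Cyp4a14 segments shrink most.

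Outside the 10 members, 17 more Cyp4 genes and pseudogenes were in the table, of which 6 had enough counts to test. Of these, 3 rose, all at low levels. Cyp4f16 had 10.5, 8.92 and 7.98 CPM in HepKO and 2.77, 1.98 and 1.32 CPM in WT (log2FC 2.18 ± 0.28, FDR 0.00102). Cyp4f39, at 1.43, 0.869 and 1.22 CPM in HepKO and 0.304, 0.167 and 0.263 CPM in WT, rose as well (log2FC 2.26 ± 0.46, FDR 0.00696). Cyp4f18, a leukotriene hydroxylase of neutrophils and other myeloid cells, had 2.41, 1.69 and 2.87 CPM in HepKO and 0.541, 0.892 and 0.146 CPM in WT (log2FC 2.13 ± 0.58, FDR 0.0213), but was not called without HepKO replicate 3 (FDR 0.0657) or WT replicate 1 (FDR 0.0565). Its exons overlap Zfp961 on the opposite strand, and the leukocyte markers given above were higher in the same libraries. Cyp4b1 (log2FC -0.15, FDR 0.594), Cyp4f17 (log2FC 0.17, FDR 0.584) and the pseudogene Cyp4f41-ps (log2FC -0.02, FDR 0.982) were not called.

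Ppara, the gene of the receptor named above for Cyp4a10 and Cyp4a14, was also lower in HepKO, and its part in the Cyp4 values was not tested. Ppara had 75, 103 and 81.6 CPM in HepKO and 262, 289 and 319 CPM in WT (log2FC -1.75 ± 0.14, FDR 1.94e-04). Its partner receptor Rxra (log2FC -0.96 ± 0.16, FDR 0.00285) and the coactivator gene Ppargc1a (log2FC -1.04 ± 0.23, FDR 0.00935) fell, as did Lpin1, a phosphatidate phosphatase that also acts as a coactivator (log2FC -2.85 ± 0.20, FDR 1.31e-04), and Fabp1, which carries fatty acids to the receptor (log2FC -1.58 ± 0.19, FDR 7.56e-04). Of 12 genes for PPARα and its partners 8 fell and 0 rose, with a median of -0.68, or 6 and 0 without HepKO replicate 1 and 4 lower and 1 higher with library totals. Of 34 tested PPARα targets other than Cyp4, 26 fell and 3 rose (median -0.96), against 27 and 3 of 35 without HepKO replicate 1. With library totals 21 fell and 5 rose. Ech1 (log2FC -1.37 ± 0.10), Acadl (-1.14 ± 0.10) and Cpt2 (-1.24 ± 0.12), enzymes of fatty acid oxidation, fell. The risers, named after their values were seen, were Fgf21, a fasting hormone (log2FC 1.62 ± 0.35), Pdk4, a kinase that restrains pyruvate oxidation (0.97 ± 0.32), and the mitochondrial carrier Ucp2 (1.63 ± 0.23). Pdk4 was not called without HepKO replicate 1 (FDR 0.0651), so the 3 called higher there are another set, nor without HepKO replicate 2 or 3 or WT replicate 2 (FDR 0.0901 to 0.103).

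Genes that serve the Cyp4 reaction or act on its product were mostly lower. Por, the reductase that passes electrons to microsomal P450 enzymes, had 319, 174 and 148 CPM in HepKO and 469, 574 and 819 CPM in WT (log2FC -1.54 ± 0.32, FDR 0.0071). Cyb5a, Cyb5b and Cyb5r3 of the cytochrome b5 system fell too, by 0.59, 0.74 and 0.41 on the log2 scale (FDR 0.0486, 0.00214 and 0.0161). The groups overlapped for Cyb5a, at 643 to 942 CPM in HepKO and 941 to 1370 CPM in WT. Cyb5r1 rose (log2FC 1.02 ± 0.19, FDR 0.00478), and the sixth gene, Pgrmc1, was not called (FDR 0.409). Of 8 haem synthesis genes 6 fell, led by Alas1, the rate-limiting enzyme, at 319, 178 and 204 CPM in HepKO and 754, 728 and 1870 CPM in WT (log2FC -2.26 ± 0.41, FDR 0.00382). Urod and Cpox were among the others, at log2FC -0.57 and -0.69. With library totals 1 of the 8 haem synthesis genes was lower, and of the 6 redox partners 1 was lower and 2 were higher. Cyb5a was then at -0.08 (FDR 0.757) and Cyb5r3 at 0.10 (FDR 0.468). The redox count lower was 2 without HepKO replicate 3 or WT replicate 2, with neither Cyb5a nor Cyb5r3 called. It was 3 with RLE size factors, with the replicate block and with a filter of 1 CPM in 3 libraries. Without HepKO replicate 2 or WT replicate 1 or 3 it was also 3. Among 7 alcohol and aldehyde dehydrogenases 4 fell (Adh4, Adh5, Aldh2 and Aldh3a2, the fatty aldehyde dehydrogenase, log2FC -1.04 ± 0.19, FDR 0.00455), or 6 without HepKO replicate 1. Adh4 was not called when any library other than HepKO replicate 1 or 3 was left out (FDR 0.056 to 0.126). Of 13 genes that take dicarboxylic acids through the peroxisome, several of which are also PPARα targets, 10 fell (median -1.14), including the transporter Abcd3 (log2FC -1.33 ± 0.13, FDR 3.43e-04), the acyl-CoA synthetase Acsl1 (log2FC -2.25 ± 0.24, FDR 4.73e-04) and the carnitine acetyltransferase Crat (log2FC -1.10 ± 0.10, FDR 2.36e-04).

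**Figure D5:**
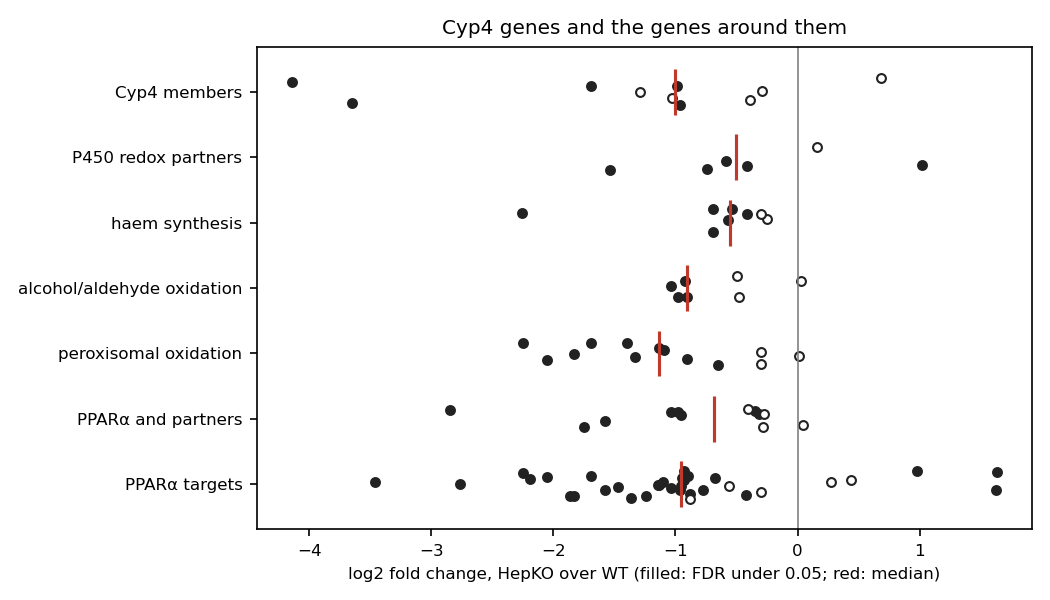
Log2 fold change, HepKO over WT, of each tested gene in the Cyp4 set and in the lists around it, filled where the FDR is under 0.05, with a red line at each median. Medians run from -1.14 for peroxisomal oxidation to -0.50 for redox partners, and 5 of the 10 Cyp4 points are filled. Hepatocyte markers, which are not drawn, had a median of -1.11.

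The 5 genes nearest to Cyp4a14 in pattern over the libraries were taken by rank among 9393 candidates, with no limit on distance. By root mean square difference they were Cyp2c29 (0.428), Lrtm1 (0.456), Cyp4a10 (0.462), Cyp2c38 (0.671) and Acot3 (0.685). Cyp2c29, an arachidonic acid epoxygenase, had 316, 46.5 and 76.7 CPM in HepKO and 1670, 1400 and 1750 CPM in WT. In all 5, HepKO replicate 1 was the highest library of its group. They were picked for likeness to Cyp4a14 over these same libraries, so this trait follows from the choice. The thioesterase gene Acot3 had 15.3, 2.23 and 2.41 CPM in HepKO and 41.8, 78.8 and 102 CPM in WT.

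Arachidonic acid epoxygenases, epoxide hydrolases and leukotriene genes were looked at as 2 lists. No epoxygenase was called higher by edgeR with all libraries, the low-count filter and TMM. Of 14 tested epoxygenases and epoxide hydrolases 9 fell (median -1.03), or 11 without HepKO replicate 1. Cyp2j5, Cyp2c50, Cyp2c37 and Cyp2c54 were at log2FC -1.47, -2.68, -4.47 and -4.18, and 1 gene rose, the hydrolase Ephx1 (1.02 ± 0.18). In that list 2 genes were higher with no filter, under DESeq2, with library totals and without HepKO replicate 2. In the leukotriene list 3 of 7 rose, Alox5ap (log2FC 1.05), the receptor Cysltr1 (2.02) and Ptgr1, a leukotriene B4 dehydrogenase with 15.6, 12.3 and 14 CPM in HepKO and 2.3, 2.23 and 1.79 CPM in WT (log2FC 2.73 ± 0.18, FDR 1.11e-04). Alox5ap was not called without HepKO replicate 1 (FDR 0.0728), HepKO replicate 3 or WT replicate 1 or 3, which left 2 of 7 higher. Lta4h, the enzyme that makes leukotriene B4, fell under TMM (log2FC -0.56 ± 0.11, FDR 0.0048) but not with library totals (-0.05, FDR 0.718). Cyp4a10 and Cyp4a14 are also known to cycle over the day. In the clock list 10 of 15 genes fell and 2 rose. The 4 with the smallest p, Hlf, Tef, Dbp and Per3, were at log2FC -1.77, -1.57, -1.25 and -1.69. With library totals 7 fell and 3 rose. With a library left out 9 or 10 fell and 1 rose, or 2 without HepKO replicate 2. The time of day of collection is not given, so its part in the Cyp4 values was not tested.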

How the data were processed

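The submitters' processing notes name featureCounts, Subread 2.0.0, STAR 2.7.11a, bcl2fastq, edgeR 3.40.2 and the mm10 build, without roles or settings. Annotation release and strand setting: not given in the sources used here. Per the labels' protocols, libraries came from a stranded mRNA kit. The deposited values were the authors' raw read counts per gene. Of 56350 IDs, 55480 matched GENCODE M21 without version. Genes were filtered with filterByExpr, scaled by TMM and tested with edgeR 4.0.16 in R 4.3.3 (quasi-likelihood, 2-sided, no covariate, n = 3 per group), which was tested on simulated data. CPM and FPKM (over union exon length) use TMM-scaled totals. The SE is the log2FC over the square root of F, and ± after CPM is SD. Coding sequences were aligned pairwise with Biopython 1.88. Alternatives were DESeq2 1.42.0, limma-voom 3.58.1, other scalings, filters and thresholds, each library left out, a replicate block and summed copies. The members, gene lists and alternatives were chosen with earlier results of these data known. Named genes are all members, other Cyp4 genes, the up to 4 list members with the smallest p (any member of the PPARα partner, redox, alcohol and aldehyde, and sex-linked lists), the 5 nearest patterns and Atg14; Socs2, Ephx1, Fgf21, Pdk4 and Ucp2 were chosen after their values were seen. Libraries of one group were distinct, with a chi-square over its degrees of freedom of 24.2 to 117 between pairs. Some genes of the lists are counted but not reported here by name.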

Additional observations from a re-analysis of the deposited data

How the results depend on the processing

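The count of Cyp4 members lower in HepKO was 5 in all 6 fits with a library left out. Over all genes, those fits called 2055 to 2896 lower and 2337 to 2816 higher of 16505 to 17145 tested. The member count lower was 3 where an absolute log2FC of at least 1 was also asked, since Cyp4f15 (-0.99) and Cyp4v3 (-0.96) fell short of it. With library totals the member count lower was 4 and with no filter 6, Cyp4f13 being added (-0.41, adjusted p = 0.0266). With no filter 3060 of all 29794 genes in the fit were lower and 3176 higher. The count higher was 1, Cyp4a31, with library totals, with no filter and with the replicate block, and 0 to 1 with a library left out. Summing near-identical copies gave 4 lower of 7 features, and put Cyp4a31 into a sum at -3.28. The summed Cyp4f counts were no longer called with library totals (-0.064) or at an absolute log2FC of at least 1 (-0.58). Under library totals Cyp4f13 (0.12), Cyp4f14 (0.22), Cyp4b1 (0.36), Cyp4f41-ps (0.48) and Cyb5r3 (0.10) were above 0 with no call, and the median of all genes was 0.52. With a library left out, Cyp4f41-ps, which had 7 to 18 counts per library, ranged from -0.28 to 0.24. Replicate numbers did not pair the libraries (correlations of same-numbered deviations -0.115, -0.055 and -0.005), and with the block 2569 genes were called higher and 2502 lower, against 3125 and 3006 without it. For the other named genes, 989 values over all alternatives kept direction and call, 70 lost the call, 5 gained one and 6 changed sign. Of the list counts, 528 stayed within 1.5 times and 80 did not. Near-identical copies and 3 libraries a group limit what single Cyp4a genes can show.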
